A study of Mus musculus with 24 samples.

Results

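H3K27me3, the trimethylation of histone H3 at lysine 27, was compared by position between XY gonadal progenitor cells at E10.5 and Sertoli cells at E13.5. The members are the regions of the 2 H3K27me3 peak lists for these cells. Overlapping peaks of a list were joined into regions, chromosomes 1 to 19 were kept, and a region was called lost, kept or gained by whether it shared at least 1 bp with a region of the other stage. This gave 9534 regions at E10.5 and 13105 at E13.5, which together are 22639 of the 207961 joined regions of all 8 lists of the series. The series profiled H3, H3K4me3 and H3K27me3 by ChIP-seq in 4 cell populations of the fetal mouse gonad, and 4 of its 24 samples are the H3K27me3 samples described here. Each list pools 2 replicates, so no spread between replicates could be computed and no p-value compares the stages. The 95% interval beside a share is the exact binomial one of Clopper and Pearson and covers counting error alone.

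The progenitor cells came from XY gonads of SF1-eGFP embryos at E10.5, in which a green reporter marks the somatic cells that express Nr5a1 (Sf1). Sertoli cells were taken from XY gonads of Sox9-CFP embryos at E13.5 by their cyan reporter. Both lines were on a C57BL/6 x CD1 background, and both cell types were obtained by FACS from gonads separated from the mesonephros. The comparison groups were XX progenitor cells from SF1-eGFP embryos at E10.5 and XX pregranulosa cells, labelled granulosa cells, from TESM-CFP embryos at E13.5. The 2 stages therefore differ in age, in reporter line and in sorting gate as well as in cell type, and these cannot be told apart. Nr5a1 and Sox9 are also the genes whose regulatory sequence drives the reporters, and reads from a reporter copy could not be told apart from reads of the gene itself. A called region does not tell whether a mark lay on all sorted cells or on a share of them.

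H3K27me3 is placed by Polycomb repressive complex 2 and bound by Polycomb repressive complex 1, and it marks developmental genes that are silent or held at low expression. In the fetal gonad, bipotential progenitor cells of the supporting lineage become Sertoli cells in the testis or pregranulosa cells in the ovary. Sertoli cells enclose the germ cells in testis cords and secrete the factors that direct the other cells of the testis.

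Depth differed between the lists. The XY progenitor list was called from 6470151 tags and the Sertoli list from 44446456, which is 6.87 times as many. Both calls required a window of 5000 bp with 4 times the tags of the H3 control and 4 times the local level. The smallest tag number accepted in a window was 14 at E10.5 and 89 at E13.5, close to the same fraction of the tags of each list. The XX progenitor list came from 33185400 tags, 5.13 times those of the XY list, and held 7805 regions. The pregranulosa list held 10939 regions, and its depth is not given in the sources used here. The part of depth in the counts below was not tested, and presence in the deeper XX progenitor list is given beside them as a measurement on a second E10.5 population.

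In the cells labelled Sertoli, 12 of 13 Sertoli marker genes carried H3K4me3, the mark of active or poised promoters, within 2 kb of the TSS. Cyp26b1, which encodes an enzyme that degrades retinoic acid, was the exception. Of the markers of other cells, 4 of 9 endothelial, 2 of 6 blood and 3 of 7 fetal Leydig genes carried H3K4me3. H3K4me3 does not single out Sertoli genes, however, since all 11 pregranulosa markers, all 7 interstitial genes and 8 of 13 germ cell genes carried it too, and what part other cells had in the sort was not tested. The endothelial genes Pecam1, Cdh5, Tek, Tie1 and Emcn carried neither mark at either stage.

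Over the genome, H3K27me3 was widespread at both stages and more extensive in Sertoli cells. Of the 9534 progenitor regions, 6889 (72.3%, interval 71.3 to 73.2%) were kept and 2645 (27.7%, 26.8 to 28.7%) were lost. Of the 13105 Sertoli regions, 6405 (48.9%, 48.0 to 49.7%) overlapped a progenitor region and 6700 (51.1%, 50.3 to 52.0%) were gained. The share lost ranged from 23.4% to 34.8% between chromosomes and the share gained from 46.6% to 56.6%. Covered sequence was 89.7 Mb at E10.5 and 155.9 Mb at E13.5, with 66.1 Mb covered at both. Thus 73.7% of the bases covered in progenitor cells were also covered in Sertoli cells, while 42.4% of the Sertoli bases were covered in progenitor cells.

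**Figure D1:**
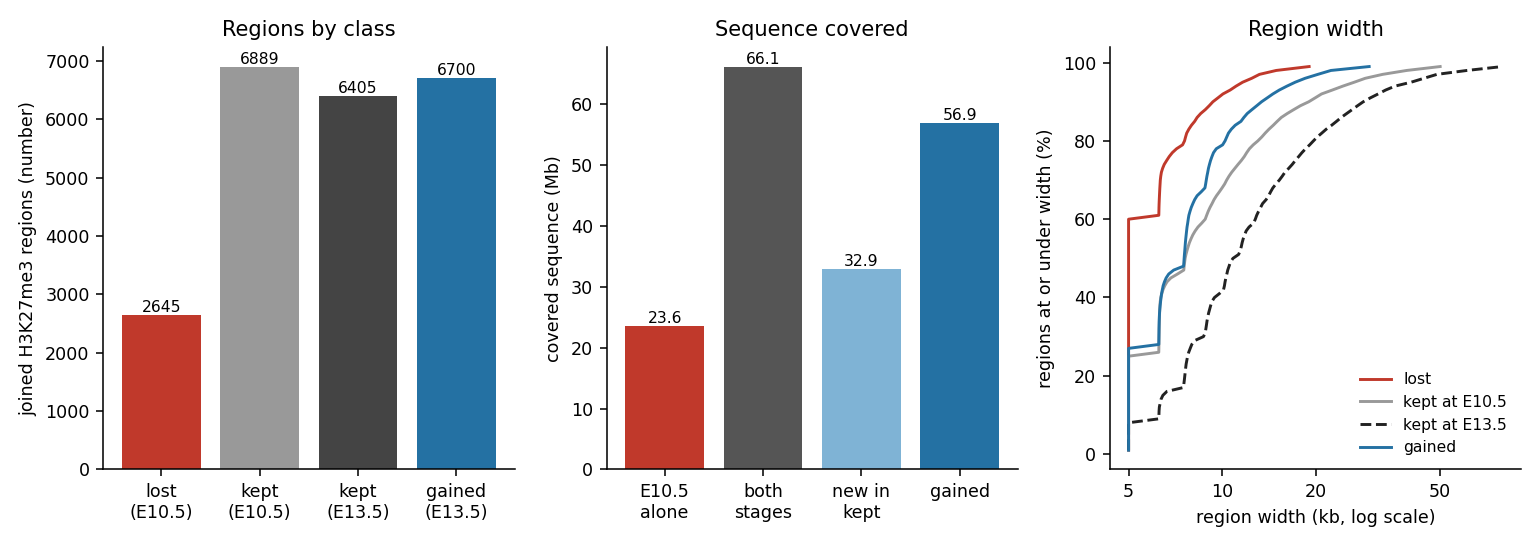
Left, number of joined H3K27me3 regions in each class, at the stage in brackets. Middle, Mb of sequence covered at E10.5 alone, at both stages, newly at E13.5 inside kept regions, and in gained regions. Right, cumulative share of regions (%) by width in kb on a log axis, where the lost regions lie furthest left with a median of 5001 bp and the regions kept at E13.5 furthest right with a median of 10814 bp.

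Kept regions were wider in Sertoli cells. Their median width was 7594 bp in progenitor cells and 10814 bp in Sertoli cells. Among the 5517 progenitor regions that met a single Sertoli region and no other, 4227 (76.6%, 75.5 to 77.7%) were wider at E13.5 and 1026 (18.6%, 17.6 to 19.6%) were narrower. The median ratio of the widths was 1.30. A further 1042 progenitor regions were joined into 440 Sertoli regions. Of the 89.8 Mb covered at E13.5 alone, 32.9 Mb lay inside kept regions and 56.9 Mb in gained regions.

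The broadest example was a Sertoli region of 346218 bp at chr8:123275763-123621980 (mm9), which covered the promoter of Foxf1a, a forkhead factor of mesenchyme. It joined 9 progenitor regions, and 313177 bp of it were already covered at E10.5. The second broadest spanned 298987 bp at chr4:153771734-154070720 over Prdm16, which encodes a zinc finger histone methyltransferase, with 284699 bp covered at E10.5 in 4 regions. The third, 213822 bp at chr9:61370891-61584712, overlapped no protein-coding gene and lay 150701 bp from the nearest protein-coding TSS, that of Tle3. There, 34250 bp were covered in progenitor cells, 35926 bp in XX progenitor cells and 153190 bp in pregranulosa cells. The first 2 regions were thus largely marked before differentiation, and the third was mostly new at E13.5 in both sexes.

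Lost regions were narrow. Their median width was 5001 bp, the size of a single listed window, and 1604 of 2645 (60.6%) consisted of 1 such window against 1771 of 6889 (25.7%) of the kept progenitor regions. The XX progenitor list also held 1292 of the lost regions (48.8%, 46.9 to 50.8%), against 5864 (85.1%, 84.3 to 86.0%) of the kept ones. For lost regions of 1 window the share was 33.6% (539 of 1604), and for those of 3 or more windows it was 84.7% (450 of 531). The wider lost regions were therefore mostly present in a second, more deeply sequenced E10.5 population, and most of the narrow ones were not. The pregranulosa list held 658 lost regions (24.9%).

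Gained regions had a median width of 7539 bp, and 398 of 6700 (5.94%, 5.39 to 6.53%) were present in the XX progenitor list. Of the gained regions, 2283 (34.1%, 32.9 to 35.2%) were present in the pregranulosa list, the XX population of the same age. Gained regions lay further from genes than the others. Only 923 of 6700 (13.8%) overlapped the promoter window of a protein-coding gene, against 924 of 2645 lost regions (34.9%) and 3440 of 6405 regions kept at E13.5 (53.7%). Another 3230 (48.2%) overlapped neither a promoter window nor a gene body of the annotation. The median distance to the nearest protein-coding TSS was 35644 bp for gained and 13727 bp for lost regions. H3K4me3 regions of Sertoli cells overlapped 1808 of 6700 gained regions, 1446 of 2645 lost regions (54.7%) and 4655 of 6405 regions kept at E13.5 (72.7%).

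Few regions lay close to the limit of 1 bp. The kept progenitor region with the least overlap shared 2 bp with a Sertoli region, and 28 of 6889 shared under 500 bp. Among regions of 1 stage alone, 24 of 2645 lost and 43 of 6700 gained ones lay within 500 bp of the other stage. The nearest lost region lay 46 bp and the nearest gained region 4 bp from a region of the other stage, and the median distances were 50300 bp and 40687 bp.

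Promoters were then classed in the same way. A promoter was a window of 4001 bp, 2 kb to each side of the annotated TSS, and 1 bp of overlap with a region sufficed to count it as marked. Of 21281 protein-coding genes on the autosomes, 5035 were marked at E10.5 and 5158 at E13.5. H3K27me3 was lost from 1129 of the 5035 (22.4%, 21.3 to 23.6%) and kept at 3906, and it was gained at 1252 of 16246 unmarked promoters (7.71%, 7.30 to 8.13%). These 2 percentages are the background for every gene group below. In the deeper XX progenitor list 826 of the 1129 lost promoters (73.2%, 70.5 to 75.7%) and 193 of the 1252 gained ones (15.4%, 13.46 to 17.5%) were marked. A lost region of its own accounted for 1025 of the lost promoters. The other 104 lay at E10.5 under kept regions alone, and no region reached their windows at E13.5. Of the gained promoters, 274 (21.9%, 19.6 to 24.3%) were reached by a kept region that had grown and 978 by a gained region.

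Sequence content differed between the classes of promoter. The median number of CpG dinucleotides per kb of window was 28.2 for lost, 28.7 for kept and 17.0 for gained promoters, and 18.7 for promoters unmarked at both stages. By the median, gained promoters thus lay near the unmarked ones in CpG number, and lost promoters near the kept ones. Gained and unmarked promoters differed at the low end. Fewer than 10 CpG per kb were found in 167 gained promoters (13.3%), 51 lost promoters (4.52%), 106 kept promoters (2.71%) and 4648 unmarked promoters (31.0%).

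To show this range, the 120 bases upstream of the annotated TSS are printed for 3 genes that lost the mark, 1 that kept it and 2 that gained it, from the mm9 assembly, 5′ to 3′ on the strand of the gene, with each CpG in capitals. The genes are Sox9 at chr11:112643418-112643537 on the plus strand, Gata4 at chr14:63890530-63890649 on the minus strand, Nr5a1 at chr2:38570063-38570182 on the minus strand, Foxl2 at chr9:98855906-98856025 on the plus strand, Hoxb4 at chr11:96177878-96177997 on the plus strand and Krt5 at chr15:101543323-101543442 on the minus strand. Each stretch ends at the base before the annotated TSS.
Sox9, lost: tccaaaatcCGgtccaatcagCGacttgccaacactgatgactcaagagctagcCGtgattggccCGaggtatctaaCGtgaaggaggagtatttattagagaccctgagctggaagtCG
Gata4, lost: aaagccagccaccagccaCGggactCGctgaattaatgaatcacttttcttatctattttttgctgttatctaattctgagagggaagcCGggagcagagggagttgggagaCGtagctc
Nr5a1, lost: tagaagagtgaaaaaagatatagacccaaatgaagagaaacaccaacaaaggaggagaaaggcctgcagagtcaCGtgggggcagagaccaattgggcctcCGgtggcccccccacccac
Foxl2, kept: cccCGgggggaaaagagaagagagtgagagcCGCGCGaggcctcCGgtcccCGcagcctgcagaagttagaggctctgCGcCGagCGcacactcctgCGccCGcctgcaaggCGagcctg
Hoxb4, gained: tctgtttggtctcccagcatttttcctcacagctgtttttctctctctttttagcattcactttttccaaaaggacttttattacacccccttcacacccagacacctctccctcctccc
Krt5, gained: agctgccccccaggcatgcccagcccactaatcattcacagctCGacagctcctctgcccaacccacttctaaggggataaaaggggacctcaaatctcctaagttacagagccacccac
The 120 bases hold 12 CpG at Foxl2, 6 at Sox9, 4 at Gata4, 2 at Nr5a1, 1 at Krt5 and 0 at Hoxb4. Over the full window the density was 74.0 CpG per kb at Foxl2, 54.7 at Sox9, 24.99 at Hoxb4, 16.0 at Krt5, 14.5 at Gata4 and 14.2 at Nr5a1. Gata4 and Nr5a1 therefore lay well under the median of lost promoters, and the classes overlapped in CpG content.

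Most promoters that lost H3K27me3 carried H3K4me3. Of the 1129 lost promoters, 999 (88.5%, 86.5 to 90.3%) carried H3K4me3 at both stages, 32 at E13.5 alone and 10 at E10.5 alone. Kept promoters carried it at both stages in 3285 of 3906 (84.1%, 82.9 to 85.2%). Of the 1252 gained promoters, 645 (51.5%, 48.7 to 54.3%) had H3K4me3 at both stages and 488 (39.0%, 36.3 to 41.7%) at neither. The H3K4me3 shares of gained promoters were close to those of promoters without H3K27me3, of which 56.3% had H3K4me3 at both stages and 39.6% at neither.

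Loss of H3K27me3 included most genes of the Sertoli marker list. Of 13 Sertoli markers, 9 were marked in progenitor cells and 8 of these lost the mark (88.9%, 51.8 to 99.7%). The share over all marked promoters was 22.4%. The list was drawn up with earlier results of these data known, and Sox9, Fgf9 and Dmrt1 are the paper's own examples of loss. The marker share is therefore a description and no independent evidence against that background. The 8 were Sox9 and Sox8, the transcription factors that drive Sertoli fate, Dmrt1, which maintains it, Fgf9 and Dhh, secreted signals of the testis, and Gata4, Wt1 and Nr5a1, which act in the gonad from before sex determination. Cyp26b1 kept it, and Amh, Cldn11, Cst9 and Ptgds were unmarked at both stages. None of the 13 gained the mark.

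The widest lost region over a promoter in the genome was at Gata4. It spanned 48847 bp at chr14:63847307-63896153, from upstream of the TSS into the gene. All 4001 bp of the Gata4 window were covered in both progenitor lists, and 0 bp in both E13.5 lists. No H3K27me3 region was listed within 40 kb of the Gata4 TSS at E13.5 in either sex. Nr5a1 had the third widest, 21496 bp at chr2:38551296-38572791, and its window likewise went from 4001 bp in both progenitor lists to 0 bp in both E13.5 lists. Wt1 had 3860 bp of its window covered in XY progenitor cells, 4001 bp in XX progenitor cells and 0 bp in Sertoli and pregranulosa cells. These 3 genes lost the mark in both sexes.

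Sox9, Dhh, Dmrt1, Fgf9 and Sox8 differed from them in the XX lineage. Sox9 had a region of 16626 bp at chr11:112632774-112649399, and its window was covered over 4001 bp in XY progenitor, XX progenitor and pregranulosa cells and over 0 bp in Sertoli cells. Dhh, with a region of 16702 bp at chr15:98715896-98732597, and Dmrt1, with 14131 bp, showed the same 4 values. Fgf9 was covered over 4001 bp, 3044 bp and 4001 bp in the XY progenitor, XX progenitor and pregranulosa lists, and over 0 bp in Sertoli cells. In each of the 5 genes the Sertoli list alone lacked the mark. Each also carried H3K4me3 at both stages, and at Dmrt1 the H3K4me3 coverage of the window was 1274 bp in progenitor cells and 3032 bp in Sertoli cells.

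The clearing at Sox9 did not extend to its 3′ flank. A Sertoli region of 54375 bp at chr11:112654420-112708794 began 10882 bp downstream of the TSS and ended 65256 bp from it. In XY progenitor cells the same flank held a region of 11082 bp, from 20261 to 31342 bp downstream. The mark was thus absent over the Sox9 gene and broader beyond it in Sertoli cells.

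**Figure D2:**
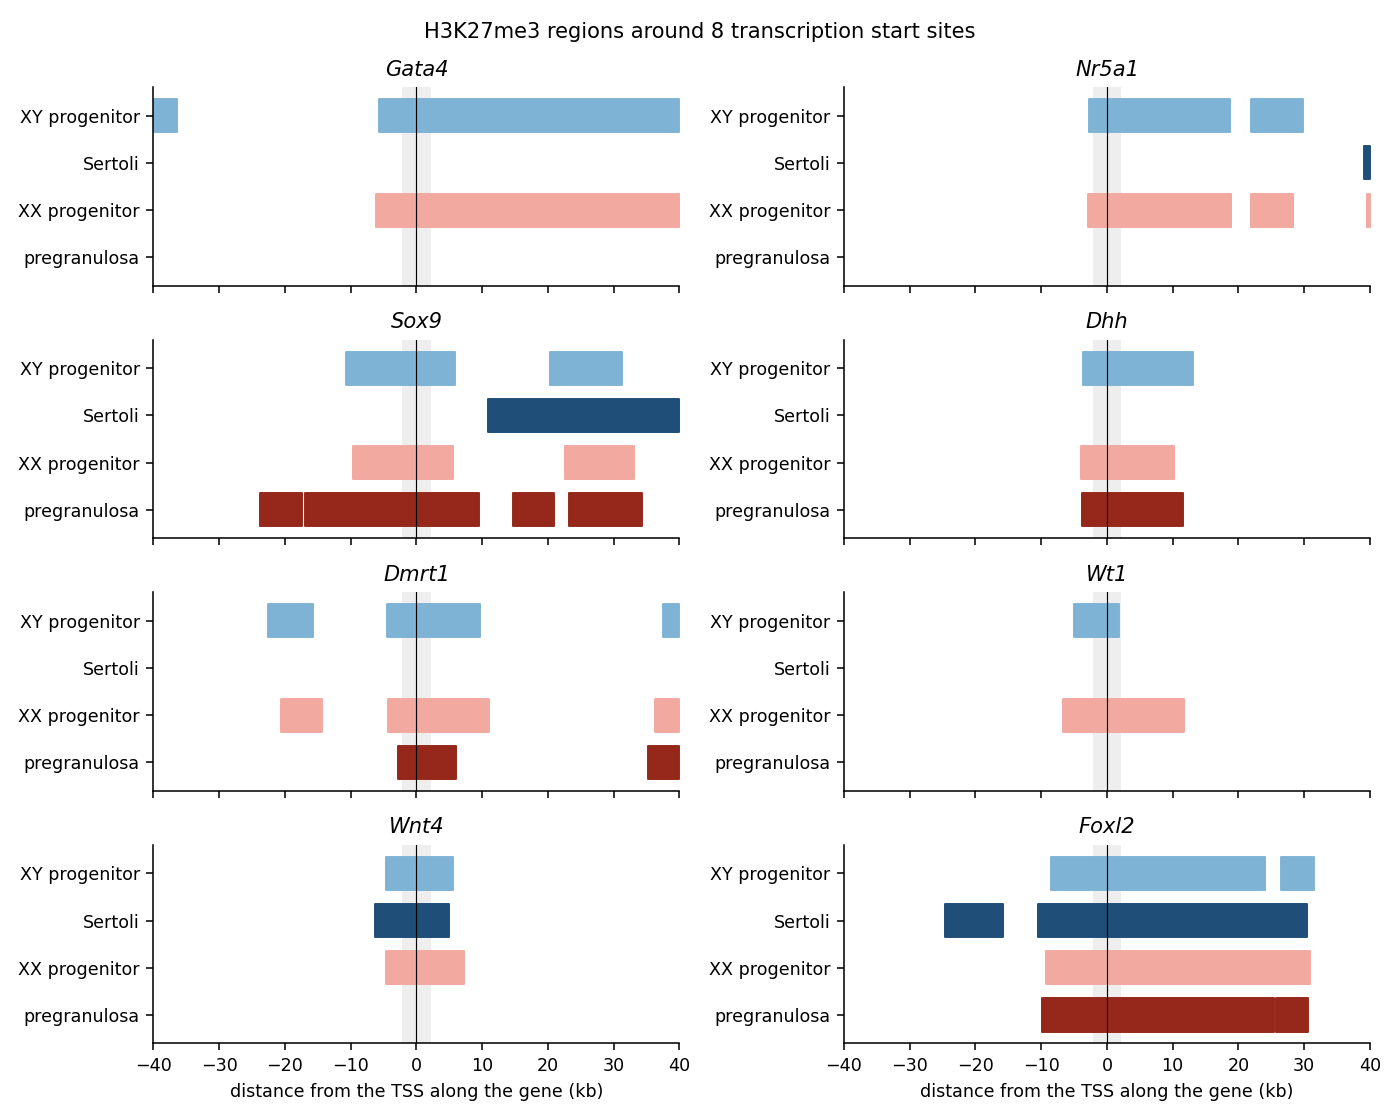
Listed H3K27me3 regions (bars) within 40 kb of the TSS of 8 genes, by distance from the TSS in kb along the direction of the gene, in the XY progenitor, Sertoli, XX progenitor and pregranulosa lists. The grey band is the promoter window of 2 kb to each side. Gata4, Nr5a1 and Wt1 have no bar over the TSS at E13.5 in either sex, Sox9, Dhh and Dmrt1 lack one in Sertoli cells alone, Wnt4 lacks one in pregranulosa cells alone, and Foxl2 has one in all 4 lists. A bar does not show signal inside a region, and the paper reports loss of signal at the Foxl2 TSS in pregranulosa cells.

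All 11 pregranulosa markers were marked in progenitor cells and all 11 kept H3K27me3 in Sertoli cells. The paper names each of them as marked by H3K27me3 in fetal or adult Sertoli cells, mostly from these same samples. The count of 11 therefore follows largely from how the list was drawn up and was not compared with the background. Foxl2, the ovarian forkhead factor, had its whole window covered in all 4 lists, under regions of 32553 bp in progenitor cells and 40986 bp in Sertoli cells. The paper reports that a closer view of the signal shows loss over the Foxl2 TSS and gene body in pregranulosa cells. The joined regions used here do not show that loss. Wnt4 and Rspo1, the secreted activators of the ovarian Wnt pathway, were covered over 4001 bp in XY progenitor, Sertoli and XX progenitor cells and over 0 bp in pregranulosa cells. Wnt4 lay under 10139 bp at E10.5 and 11389 bp in Sertoli cells. Rspo1 lay under 13144 bp and 32622 bp. Lef1, a transcription factor of the Wnt pathway, lay under 14357 bp and 23607 bp. The region at Axin2, a Wnt target and inhibitor, reached 1010 bp of the window at E10.5 and all 4001 bp in Sertoli cells, and with the TSS base alone as the promoter Axin2 was gained. The region at Lhx9, which is needed for the early gonad, was narrower in Sertoli cells, 25727 bp at E10.5 and 18018 bp at E13.5. The other markers were Fst, which encodes follistatin, the signal gene Bmp2, the Wnt ligand gene Wnt2b, the receptor gene Lgr5 and the homeobox gene Irx3. Their windows were covered over 3496 to 4001 bp at E10.5, lowest at Bmp2, and over 3148 to 4001 bp in Sertoli cells, lowest at Lgr5. Of the other Wnt pathway genes examined, Fzd1 and Wnt5a kept the mark, and of the control genes Hoxd13 and Pou5f1 were covered over 4001 bp and Gapdh and Tbp over 0 bp at both stages. Znrf3, a ubiquitin ligase that limits Wnt receptors, lost it from a region of 5001 bp.

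Other lists bore on neighbouring roles. Of 19 early gonad factors, 13 were marked at E10.5, and Gata4, Nr5a1, Wt1, Zfpm2 and Gadd45g lost the mark (5 of 13, 38.5%, 13.9 to 68.4%). The interval includes 22.4%, and Gata4, Nr5a1 and Wt1 were also counted among the lost Sertoli markers. Zfpm2 encodes the cofactor of Gata4, and Gadd45g acts upstream of Sry. At Zfpm2 the coverage of the window was 4001 bp in both progenitor lists and 0 bp in both E13.5 lists. Cbx2, the Polycomb subunit whose loss causes XY sex reversal, and Six4 were called gained, with 3243 bp and 3747 bp of the window covered in Sertoli cells. The Cbx2 window was however covered over 3378 bp in the deeper XX progenitor list, while that of Six4 was covered over 0 bp there.

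Of 24 genes for secreted and metabolic products of Sertoli cells, 6 of the 13 marked ones lost H3K27me3 (46.2%, 19.2 to 74.9%) and none of 11 unmarked ones gained it. The 6 were Dhh, Fgf9, the platelet-derived growth factor gene Pdgfa, the inhibin subunit gene Inhbb, Tesc and Kitl, the ligand of the Kit receptor of germ cells. The interval for the lost share includes 22.4%, and Dhh and Fgf9 were also counted among the lost Sertoli markers. Pdgfa lay under 14953 bp at E10.5, Inhbb under 11574 bp, Tesc under 9050 bp and Kitl under 6963 bp. Kitl was marked over 0 bp in pregranulosa cells as well, whereas Pdgfa and Tesc were covered over 4001 bp there. Kitl was thus free of the mark in both E13.5 lists, and Pdgfa and Tesc in the Sertoli list alone.

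Among 21 genes of testis cords, basement membrane and junctions, Col9a2 and Col9a3 lost the mark and Col4a1, Col4a2, Lama5 and Fbln1 gained it. These were 2 of 7 marked promoters (28.6%, 3.67 to 71.0%) and 4 of 14 unmarked ones (28.6%, 8.39 to 58.1%). The first interval includes 22.4%, and the second lies above 7.71% but counts Col4a1 and Col4a2 separately. Col9a2 and Col9a3 encode chains of collagen IX and were covered over 4001 bp each in pregranulosa cells. Col4a1 and Col4a2, the basement membrane collagen genes, share a bidirectional promoter and a Sertoli region of 5001 bp that reached 1706 bp and 1685 bp of their windows. Both windows were also covered in XX progenitor cells, over 3902 bp and 3881 bp, so that their gain was not seen when either progenitor list counted as marked.

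Among markers of other cell types, changes were few in number. The 13 germ cell and pluripotency genes included 8 kept and 5 unmarked, and the 9 endothelial genes 4 kept and 5 unmarked, with no loss or gain in either list. Of 6 blood genes, Csf1r and Itgam gained the mark, Tal1 kept it and 3 were unmarked. Csf1r encodes the macrophage growth factor receptor and was covered over 2891 bp in Sertoli cells, and Itgam, a myeloid integrin gene, over 4001 bp. Both were at 0 bp in the other 3 lists. Of 7 interstitial mesenchyme genes, Nr2f2 and Maf gained the mark and 5 kept it. Nr2f2, a nuclear receptor gene of interstitial cells, was covered over 4001 bp in Sertoli and in pregranulosa cells and over 0 bp in both progenitor lists. Of 7 fetal Leydig and steroidogenic genes, Lhcgr gained the mark, Hsd3b6 lost it over 742 bp, Insl3 kept it and 4 were unmarked. As shares of promoters unmarked at E10.5, the gains were 2 of 5 blood (5.27 to 85.3%), 2 of 2 interstitial (15.8 to 100%) and 1 of 5 fetal Leydig genes (0.505 to 71.6%). The interstitial interval lay above the background of 7.71%, and the others included it. It rests on 2 promoters, however, and Nr2f2 was kept rather than gained when every transcript start counted. No allowance was made for the number of lists examined.

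The study also supplied 2 long lists of genes that become specific to Sertoli or to pregranulosa cells by E13.5, defined on expression data from other samples. Of 1408 Sertoli-specific genes 1327 were matched, and of 1164 pregranulosa-specific genes 1072. A similar share of each list was marked in XY progenitor cells, 355 of 1327 (26.8%, 24.4 to 29.2%) and 302 of 1072 (28.2%, 25.5 to 31.0%). In Sertoli cells 174 of the Sertoli-specific genes (13.1%, 11.3 to 15.0%) and 299 of the pregranulosa-specific genes (27.9%, 25.2 to 30.7%) were marked. The intervals of the lists overlapped at E10.5 and lay apart at E13.5, where the Sertoli-specific list had the lower share.

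By class, H3K27me3 was lost from 215 of the 355 marked Sertoli-specific promoters (60.6%, 55.3 to 65.7%), from 97 of 302 pregranulosa-specific ones (32.1%, 26.9 to 37.7%) and from 817 of 4378 promoters in neither list (18.7%, 17.5 to 19.9%). It was gained at 34 of 972 unmarked Sertoli-specific promoters (3.50%, 2.43 to 4.85%), at 94 of 770 pregranulosa-specific ones (12.2%, 9.98 to 14.7%) and at 1124 of 14505 in neither list (7.75%, 7.32 to 8.20%). The 3 intervals do not overlap in either direction. Among promoters marked in both the XY and the XX progenitor list, the lost shares were 58.3% (187 of 321), 26.2% (69 of 263) and 14.4% (570 of 3956), in the same order. Most Sertoli-specific promoters, 938 of 1327, were unmarked at both stages, and 884 of those 938 (94.2%) carried H3K4me3 in Sertoli cells.

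**Figure D3:**
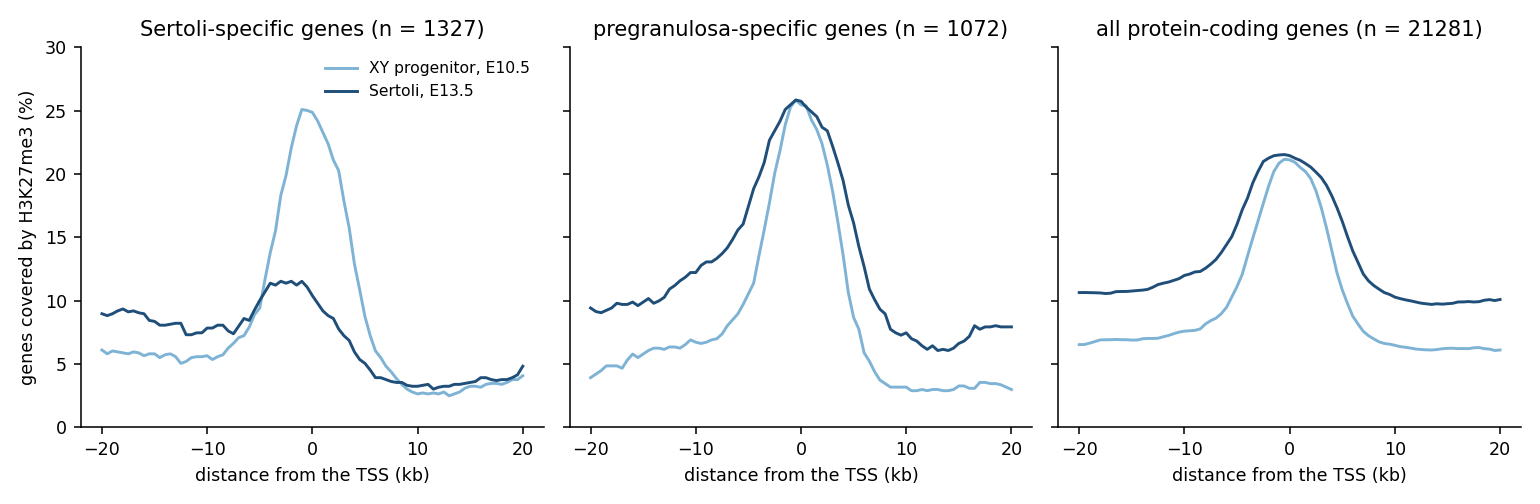
Share of genes (%) whose position at a given distance from the TSS (kb, upstream negative) is covered by H3K27me3 in XY progenitor and Sertoli cells, for the 2 sex-specific lists and for all protein-coding genes. At the TSS the Sertoli-specific share was 24.9% at E10.5 and 10.4% at E13.5, while the pregranulosa-specific share was 25.5% and 25.7%, with a broader base at E13.5.

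The Sertoli-specific promoters that were fully covered at E10.5 under the widest regions and bare at E13.5 were Reep6, Dhh, Sox9, Socs2, Pdgfa and Dmrt1. Reep6 encodes an endoplasmic reticulum protein, and its window was bare at E13.5 while its E10.5 region of 55229 bp was kept elsewhere. Socs2, a suppressor of cytokine signalling, lay under a lost region of 16313 bp. All 6 windows were covered in XX progenitor cells, and in pregranulosa cells Reep6 was covered over 2943 bp and the others over 4001 bp. Of the 215 lost Sertoli-specific promoters, 187 (87.0%) were marked in XX progenitor and 126 (58.6%, 51.7 to 65.3%) in pregranulosa cells. Of the 97 lost pregranulosa-specific promoters, 69 (71.1%) and 14 (14.4%) were.

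The corresponding pregranulosa-specific genes that lost the mark in Sertoli cells were Gata6, Greb1, Cpt1a, Kcnd2, Bhlhe41 and Doc2b. Gata6, a paralog of Gata4, lay under a region of 19718 bp, the fourth widest lost region over a promoter, and was at 0 bp in pregranulosa cells as well. Cpt1a encodes the carnitine transferase of mitochondrial fatty acid import and lay under 11805 bp. Of these 6, Bhlhe41 alone was covered in pregranulosa cells, over 2493 bp. Carrying the mark in neither E13.5 list was thus shared by 5 of the 6.

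Pregranulosa-specific genes that gained the mark over the whole window in Sertoli cells were led by Gm1968, Ano1, Timp2, Hoxc4, Chd9 and Cacnb3. Timp2, an inhibitor of matrix metalloproteinases, lay under a gained region of 50576 bp at chr11:118190105-118240680. Ano1, which encodes a calcium-activated chloride channel, was reached by a Sertoli region of 54869 bp. All 6 were at 0 bp in XX progenitor cells, and 5 of 6 were at 0 bp in pregranulosa cells, the exception being Cacnb3 at 4001 bp. Among Sertoli-specific genes the gained promoters were led by Gas2l3, Setbp1, Islr, Ren1, Sync and Bmper, and 5 of these 6 were also covered in pregranulosa cells, with Islr at 0 bp. Sync and Bmper were covered in XX progenitor cells too, over 3629 bp and 3468 bp. Of all 94 gained pregranulosa-specific promoters 27 (28.7%, 19.9 to 39.0%) were marked in pregranulosa cells, and of the 34 gained Sertoli-specific ones 20 were (58.8%, 40.7 to 75.4%).

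The other wide lost regions over promoters were at E130114P18Rik (24240 bp), Rpp25 (19627 bp), Tle2 (18655 bp), Btn1a1 (18014 bp), Cradd (17179 bp), Fabp12 (16851 bp) and Dpyd (16337 bp). Tle2 encodes a corepressor, and Dpyd the enzyme that starts pyrimidine breakdown. At Cradd the region met the window at its edge only, and under 500 bp of required overlap Cradd was unmarked. All 12 of the widest lost regions over a promoter were present in the XX progenitor list, over 9863 bp at Dpyd and over at least 13605 bp at the other 11. In the pregranulosa list 6 were absent, and the region at Cradd was present over 10722 bp.

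The widest gained regions over promoters were at Gse1 (83968 bp), Csf1 (50754 bp), Timp2 with BC100451 (50576 bp), Parvg (48839 bp), Trim29 (44790 bp), Hoxc5 with Hoxc4 (43574 bp), 1810011O10Rik (41552 bp), Hdac7 with Gm17532 (41498 bp), Des with Speg (38419 bp), Gm22 (29803 bp), Padi3 (29666 bp) and Accn4 (29630 bp). Csf1 encodes the macrophage growth factor that acts on Csf1r. Des encodes desmin, the intermediate filament of muscle, and Hdac7 a histone deacetylase. Among the 12, only the regions at Csf1, Des with Speg and Gm22 were present in the XX progenitor list, over 7569 bp, 5001 bp and 13606 bp. The pregranulosa list overlapped 10 of the 12 by at least 1 bp. Coverage there ran from 5001 bp, at Hoxc5 with Hoxc4 and at Hdac7 with Gm17532, to all 50754 bp at Csf1. The promoter windows of Hoxc4 and Hoxc5 were at 0 bp in that list.

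Gene families were taken by symbol and are described with their values seen. The 39 Hox genes, which give cells their position along the body axis, showed no loss. Every Hox promoter was marked in Sertoli cells, 27 of them kept and 12 gained, and the gains fell in one stretch of the clusters. All 12 Hox promoters unmarked at E10.5 gained the mark (100%, 73.5 to 100%), against 7.71% of all unmarked promoters. They were 12 of the 13 genes of paralogs 3 to 6, the other being Hoxc6, which was marked at E10.5. The annotated start used for Hoxa3, chr6:52163338, lay upstream of that of Hoxa6, chr6:52161355, and their windows overlapped. That of Hoxd3, chr2:74549986, lay between the starts of Hoxd8 and Hoxd4. These 2 windows therefore lay beside other paralogs. All 5 genes of paralogs 1 to 2 and all 21 of paralogs 7 to 13 were kept. The 12 gained genes lay under 4 Sertoli regions and are not independent of each other. In XX progenitor cells 0 of the 12 were marked and in pregranulosa cells 9 of 12, the others being Hoxc4, Hoxc5 and Hoxd3.

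In 3 of the 4 clusters the gained genes lay under a Sertoli region that joined several progenitor regions. The Hoxa cluster lay under 1 Sertoli region of 191902 bp at chr6:52091753-52283654, of which 116514 bp were covered at E10.5 in 5 regions. Over Hoxb, a Sertoli region of 117141 bp at chr11:96131560-96248700 had 32718 bp covered at E10.5. The Hoxd region of 130167 bp at chr2:74475900-74606066 had 76769 bp covered. At Hoxc4 and Hoxc5 the Sertoli region of 43574 bp at chr15:102834739-102878312 had 0 bp covered at E10.5 and 5001 bp in pregranulosa cells. At the 5′ flank of Hoxb4 printed above, the window was covered over 4001 bp in Sertoli cells while its H3K4me3 coverage was 3603 bp in progenitor cells and 0 bp in Sertoli cells. Hoxb3 likewise had 4001 bp of H3K4me3 at E10.5 and 0 bp at E13.5. The other 10 of the 12 gained Hox promoters still carried H3K4me3 in Sertoli cells, from 3 bp at Hoxc4 to 3708 bp at Hoxa5.

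**Figure D4:**
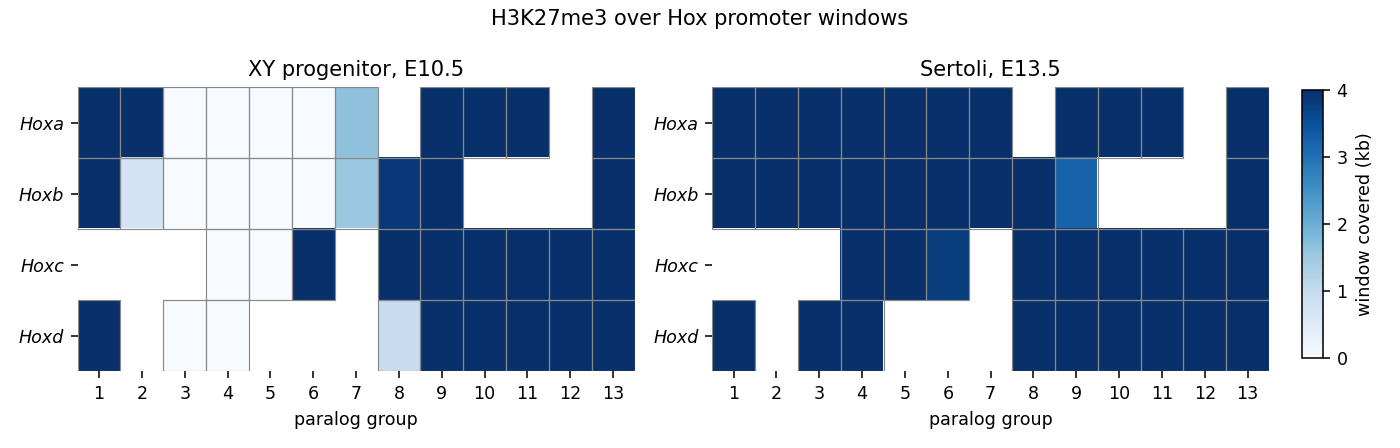
Bases of the promoter window covered by H3K27me3 (colour, kb, up to the full window of 4 kb) for the 39 Hox genes by cluster (rows) and paralog group (columns), in XY progenitor cells at left and Sertoli cells at right. Blank cells without a frame have no gene. The pale block at paralogs 3 to 6 at E10.5, with Hoxc6 as its exception, is fully covered at E13.5 apart from Hoxc6, at 3791 bp.

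Families of structural and immune genes were among those with other gains. Of 40 keratin promoters unmarked at E10.5, 19 gained the mark (47.5%, 31.5 to 63.9%). They lay under 12 regions, because the keratin genes are clustered, and Krt6a, Krt5 and Krt74 shared 1 region of 74538 bp. Of the 19, 1 was marked in XX progenitor cells, 8 in pregranulosa cells and 11 in neither. At Krt5, a keratin gene of the basal epidermis, coverage was 4001 bp in Sertoli cells and 0 bp in the other 3 lists. Krt8, a keratin gene of simple epithelia, was the single keratin to lose the mark, with 4001 bp covered in both progenitor lists and 0 bp in both E13.5 lists. Its H3K4me3 coverage was 1278 bp at E10.5 and 2585 bp in Sertoli cells.

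Collagen genes gained the mark at 11 of 23 unmarked promoters (47.8%, 26.8 to 69.4%), under 10 regions, and lost it at 4 of 18 marked ones. The gains included Col1a2, a fibrillar collagen gene of connective tissue, and Col6a2, Col6a3, Col6a5 and Col6a6, which encode chains of collagen VI. In XX progenitor cells 5 of the 11 were already marked, namely Col4a1, Col4a2, Col6a5, Col6a6 and Col16a1, and 4 were marked in neither XX list. Col1a2 was covered over 4001 bp in Sertoli and pregranulosa cells and over 0 bp in both progenitor lists. Sarcomere genes, which encode the contractile apparatus of muscle, gained it at 7 of 19 (36.8%, 16.3 to 61.6%). Among them Tnnt2, Myh6 and Myh7, genes of heart muscle, were covered over 4001 bp in Sertoli cells and over 0 bp in the other 3 lists, and had 0 bp of H3K4me3 at both stages. Of the 7, Myl7 was marked in XX progenitor cells over 1446 bp, Myh2 in pregranulosa cells over 2105 bp, and 5 in neither. Integrin genes gained it at 6 of 21 (28.6%, 11.3 to 52.2%) and interleukin and interleukin receptor genes at 11 of 54 (20.4%, 10.6 to 33.5%), where Il10, Il12a, Il1b and Il18 were at 0 bp in the other 3 lists. Of the 11 interleukin genes, 1 was marked in XX progenitor cells (Il9r, 1947 bp), 3 in pregranulosa cells and 7 in neither, and of the 6 integrin genes, 1 was marked in XX progenitor cells (Itga3, 4001 bp). The intervals for keratin, collagen, sarcomere, integrin and interleukin genes lay above 7.71%. They were not alone in this. The intervals for potassium channel (7 of 24, 12.6 to 51.1%), Bmp and Gdf (3 of 7, 9.90 to 81.6%) and solute carrier genes (7.93 to 17.2%) lay above it too. So did those for frizzled (3 of 3) and Notch pathway genes (2 of 2), on few promoters. The testis cord, basement membrane and junction list, which shares Col4a1 and Col4a2 with the collagen genes, was above it too (4 of 14). The interval for chemokine genes, also immune, included it (5 of 40, 4.19 to 26.8%). All these intervals treat genes that share a region as independent, and no allowance was made for the number of families examined. They are given as description, and whether a family exceeds the background was not tested.

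Other families held lost promoters. Of 12 marked Sox genes 5 lost the mark (41.7%, 15.2 to 72.3%), namely Sox5, Sox8, Sox9, Sox10 and Sox30, and none gained it. Sox10, a close relative of Sox8 and Sox9, was covered over 4001 bp in pregranulosa and 0 bp in Sertoli cells. Of 17 marked semaphorin and plexin genes, which encode guidance ligands and their receptors, Plxna1, Plxnc1, Sema3e, Sema6c and Sema7a lost it (29.4%, 10.3 to 56.0%) and none gained it. The frizzled genes for Wnt receptors changed in both directions. Of 7 marked ones, Fzd3, Fzd5, Fzd8 and Fzd9 lost the mark (57.1%, 18.4 to 90.1%) and 3 kept it. Fzd2, Fzd4 and Fzd7 gained it. In the Notch pathway Hes6, Jag1 and Notch2 lost it (3 of 16 marked, 18.8%, 4.05 to 45.6%). Notch1 and Notch4 gained it, and 13 of the 18 kept it. The intervals for the lost shares of the Sox, semaphorin and plexin, frizzled and Notch genes include 22.4%, and these losses are not apart from the background.

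Several families of developmental regulators held no lost promoter. All 9 Pax, 14 Nkx, 12 LIM homeobox, 6 Irx, 6 Dlx and 4 Zic genes kept the mark, as did 18 of 20 proneural bHLH genes with the other 2 unmarked. The upper limits for the lost share were 33.6% for Pax, 23.2% for Nkx, 26.5% for LIM homeobox, 45.9% for Irx and for Dlx and 60.2% for Zic genes, so that each of these includes 22.4%, while that for proneural genes was 18.5%. Solute carrier genes lost it at 32 of 122 marked promoters (26.2%, 18.7 to 35.0%) and gained it at 25 of 208 (interval 7.93 to 17.2%). Of 1081 olfactory receptor genes 1053 were unmarked at both stages, and 13 gained it (1.22% of the unmarked, 0.651 to 2.08%).

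**Figure D5:**
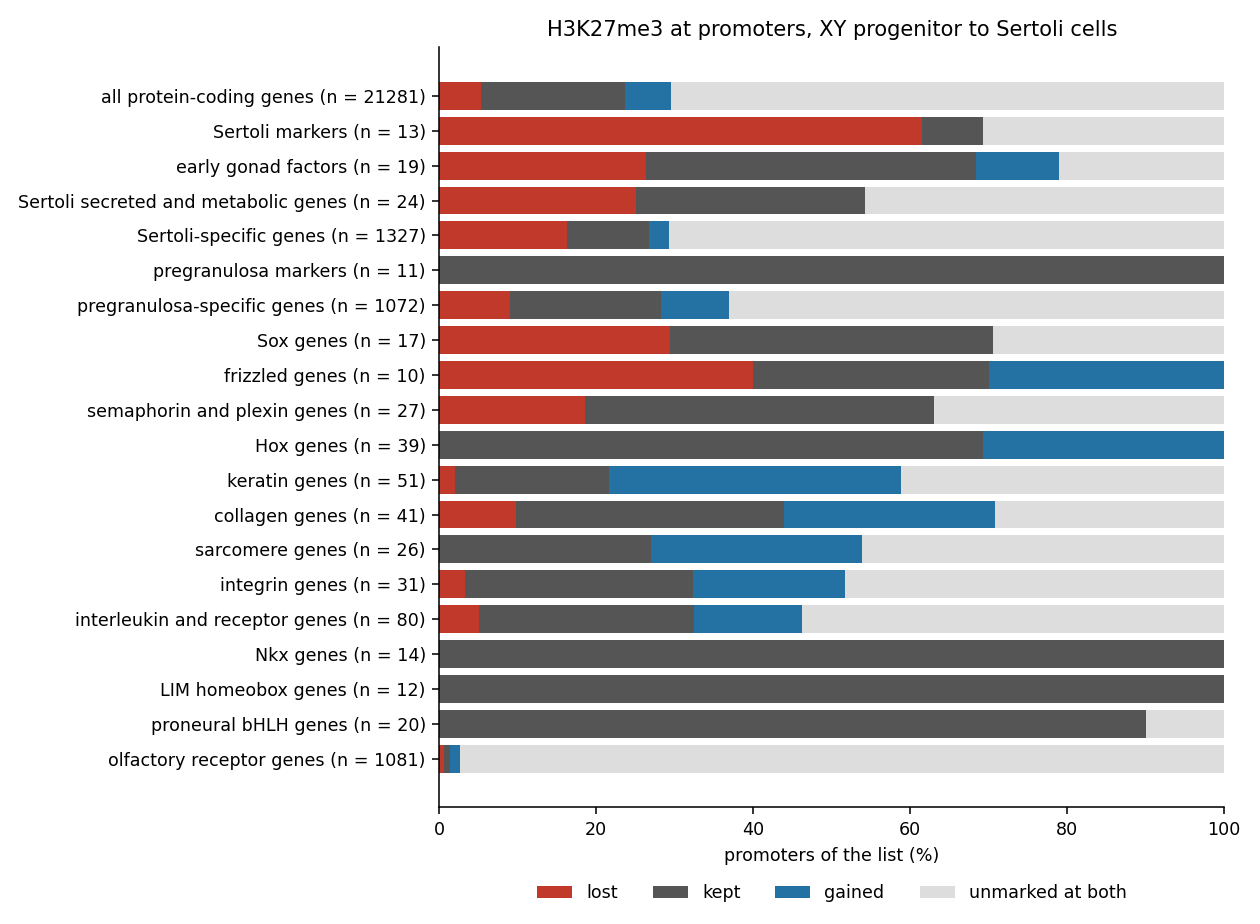
Share of promoters (%) in each class for all protein-coding genes, for gene lists and for families, with the number of genes in brackets. Red is lost, dark grey kept, blue gained and light grey unmarked at both stages. Among the groups drawn, red is longest for the Sertoli markers (8 of 13), blue is longest for the keratin genes (19 of 51), and the pregranulosa markers are all kept (11 of 11). Both marker lists were drawn up with earlier results of these data known.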

How the data were processed

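Lists of H3K27me3 and H3K4me3 peaks on mm9 (NCBIM37) were used as the authors deposited them. Per the submitters' processing notes, Trim Galore, Bowtie, SAMtools and HOMER made them, and per the file headers (absent from the pregranulosa lists) peaks were called in histone style with H3 as the control. The score column that the authors deposited holds 1 value for every peak, so the lists give presence and not level, and only the deposited positions were used. Listed H3K27me3 windows overlapped (36469 at E10.5, 74154 at E13.5) and were joined. Promoters were set on GENCODE M1, with the longest entry for each symbol (21281 of 21418 entries).

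Counts and shares were computed with no test. Genes were named by rule: up to 6 lost and 6 gained genes of each short list, the 12 widest lost and gained regions over promoters, the 6 best covered, then widest, genes of each sex-specific list in each direction, the 3 widest kept regions and every gene the paper names as an example. Family members were named after their values were seen. The members and lists were chosen with earlier results of these data known. The sex-specific lists were used as gene names from the supplement. A few genes of the short lists were not matched on the autosomes and are not reported here.

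On simulated data 3000 of 3000 regions were classed right, and the coverage of 2000 of 2000 intervals was the same as bedtools gave. Python 3.11.15, NumPy 2.4.6, pandas 2.3.3, SciPy 1.17.1, pysam 0.24.0, matplotlib 3.10.9 and bedtools 2.31.1 were used.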

Additional observations from a re-analysis of the deposited data

Results flagged for a closer look

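At 27 promoters H3K27me3 was lost from XY progenitor to Sertoli cells and gained from XX progenitor to pregranulosa cells, so that the direction differed between the sexes. They were 2.39% (1.58 to 3.46%) of the 1129 lost promoters. Of all 1129, 215 (19.0%, 16.8 to 21.5%) were Sertoli-specific and 97 (8.59%, 7.02 to 10.4%) pregranulosa-specific. The 27 included 8 Sertoli-specific genes, among them Itga4, an integrin gene, Lpl, which encodes lipoprotein lipase, Enc1 and Slc30a1, and 1 pregranulosa-specific gene. At Itga4 the window was covered over 4001 bp in XY progenitor and in pregranulosa cells and over 0 bp in XX progenitor and Sertoli cells. Of the 27, 6 were covered over the whole window in both lists that marked them.

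The opposite was found at 73 promoters, where the mark was gained in the XY and lost in the XX lineage. They were 5.83% (4.60 to 7.28%) of the 1252 gained promoters. Of all 1252, 94 (7.51%, 6.11 to 9.11%) were pregranulosa-specific and 34 (2.72%, 1.89 to 3.77%) Sertoli-specific. The 73 included 12 pregranulosa-specific genes, among them Bnc2, a zinc finger gene, Fat4, an atypical cadherin gene, Man1a and Dhrs3, and 1 Sertoli-specific gene, Bub1. Bnc2 and Fat4 were covered over 4001 bp in Sertoli and XX progenitor cells and over 0 bp in XY progenitor and pregranulosa cells. Of the 73, 13 were wholly covered in both lists that marked them. By definition all 73 were marked in the deeper XX progenitor list and unmarked in the XY progenitor list of the same age. With 1 pooled list for each population, neither difference was tested.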

How the results depend on the processing

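Of 61 counts recomputed under 12 alternatives, 58 stayed within 1.5 times the reported count. Gained regions numbered 4025 when the longer list was reduced to its widest regions, and gained promoters 1989 when every annotated gene was counted. Lost regions numbered 1292 when E10.5 regions had to be in both progenitor lists, an alternative chosen after seeing the data. The lost share of marked promoters ranged from 58.5 to 70.4% for Sertoli-specific, 26.8 to 41.4% for pregranulosa-specific and 14.8 to 26.9% for other genes. The gained shares ranged from 1.95 to 4.38%, 8.83 to 13.49% and 5.63 to 8.54%. Of 169 named genes, 27 changed class under at least 1 alternative and none reversed. Bmper, Cbx2, Col4a1, Col4a2, Csf1, Gm22 and Sync were kept when either progenitor list counted, and Ano1, Nr2f2 and Speg when every transcript start did. Cbx2, Col4a1, Col4a2, Lama5, Csf1r, Lhcgr and Six4 were unmarked, and Fzd1 was lost, when the longer list was reduced. Fzd1 was gained where both progenitor lists had to hold a region.

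No paired analysis was possible because each list pools both replicates. Leaving out a replicate was not run for the same reason. Of the lists with a stated depth, the XY progenitor list had the fewest tags, and the effect of depth on its missing regions was not tested.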
